A study of Mus musculus with 8 samples.

Results

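Of the 60989 cells of a single-cell RNA-seq table of mouse cortex, 1521 carried the authors' cell type name Inh_MGE, and these cells are described here. The members were all cells with that name, and each of them came from postnatal day 7 (P7), with 777 of the 11310 cells of library 1 and 744 of the 11177 cells of library 2. Wild-type C57BL/6 mice supplied the tissue, somatosensory together with motor cortex, each library was a pool of several animals of both sexes, and live cells were sorted by their dye staining before capture in droplets with the 10x Genomics 3' v2 kit. Both P7 titles end in the same numbers, which read as a date whose meaning the labels do not state, and nothing in the table ties a library number to a title. Where the P7 libraries are captures of a single pool, the spread between them is technical.

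The medial ganglionic eminence (MGE) is a transient zone of the embryonic ventral forebrain. Its progenitors give rise to inhibitory interneurons that migrate tangentially into the cortex and there mature into mainly parvalbumin-expressing and somatostatin-expressing cells. The caudal ganglionic eminence (CGE) supplies other interneurons, among them those that make the peptide Vip. Gad1 encodes an enzyme that makes the transmitter GABA, and Lhx6 encodes a transcription factor that MGE-derived interneurons keep after leaving the cell cycle. Levels of Gad1 and Lhx6 were not analysed here, since the table holds no expression values, so the name was taken as given. Cells named Sst, for the peptide somatostatin, are as a rule also of MGE origin, so that the name MGE in this annotation does not stand for every cell of that lineage.

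The MGE type was the most frequent of the 5 interneuron names at P7. It made up 42.2% of the 1840 interneurons of library 1 (exact binomial 95% interval 39.96 to 44.5%) and 41.8% of the 1779 interneurons of library 2 (39.5 to 44.2%). Sst followed with 30.9% and 28.6%, Npy with 12.8% and 14.9%, CGE with 7.07% and 7.70% and Vip with 6.96% and 6.97%. The intervals of the MGE and Sst shares did not overlap in either library. Among all cells, MGE stood at 6.87% in library 1 (6.41 to 7.35%) and 6.66% in library 2 (6.20 to 7.13%), with a mean of 6.76% ± 0.151 (SD, n = 2). These intervals cover counting error only. The name was not used for any of the 2636 interneurons of P1 or the 128 of P21. As clusters were made and named within each age, this describes the naming and gives no share of the lineage at those ages.

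A transcript count per cell (UMIs, unique molecular identifiers, which the authors had brought to a similar coverage per cell across libraries) placed the MGE type between Sst and the remaining interneurons. The median was 4870 UMIs in library 1 and 4980.5 in library 2, or 4925 ± 78.1 (SD, n = 2). Sst cells held 5966 and 6091 UMIs, Npy cells 4213.5 and 4796, CGE cells 3694.5 and 4318, and Vip cells 3114.5 and 3209. MGE cells thus stood below Sst and above the other 3 names in both libraries, and the library medians of MGE overlapped with those of none of these types. The within-library difference of MGE from Sst was -1103 ± 10.3 UMIs (SD, n = 2), and that from Vip was 1764 ± 11.3. The difference from CGE was 919 ± 363 and the difference from Npy 420.5 ± 334, the latter being 656.5 UMIs in library 1 and 184.5 in library 2.

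Genes detected per cell had the same order. The median was 2249 genes in library 1 and 2269 in library 2 for MGE cells, against 2578 and 2615 for Sst, 2033 and 2204 for Npy, 1835 and 2068 for CGE, and 1658 and 1693 for Vip. The differences of MGE from these types were -337.5 ± 12.0, 140.5 ± 107, 307.5 ± 151 and 583.5 ± 10.6 genes (SD, n = 2). Without library 1 the Npy difference fell from 140.5 to 65 genes, and without library 2 it was 216 genes. The CGE difference fell from 307.5 to 201 genes without library 1 and was 414 genes without library 2. Among all 13 types named at P7, MGE ranked 4 of 13 in both UMIs and genes in each library, behind Sst, the callosal projection neurons (CPN) and the subcerebral projection neurons (SCPN). SCPN stood close to it, at 4922 and 4996 UMIs, so that the library medians of these types overlapped in UMIs. In genes they did not overlap, with 2317 and 2365 in SCPN.

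The share of UMIs from mitochondrially encoded transcripts was higher in the MGE type than in any other type at P7. Its median was 6.45% in library 1 and 6.44% in library 2. The next types were CPN, at 5.85% and 5.75%, and layer IV neurons, at 5.84% and 5.61%. Among interneurons, Sst stood at 5.50% and 5.25%, Npy at 4.95% and 4.81%, CGE at 4.50% and 4.54%, and Vip at 4.35% and 4.02%. The MGE median was above that of each interneuron type in both libraries, by 1.07 ± 0.170 percentage points for Sst, 1.57 ± 0.10 for Npy, 1.93 ± 0.032 for CGE and 2.27 ± 0.232 for Vip (SD, n = 2). Each of these differences was several times the spread between the libraries. The Sst median pools clusters with unlike shares, which are given below.

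**Figure D1:**
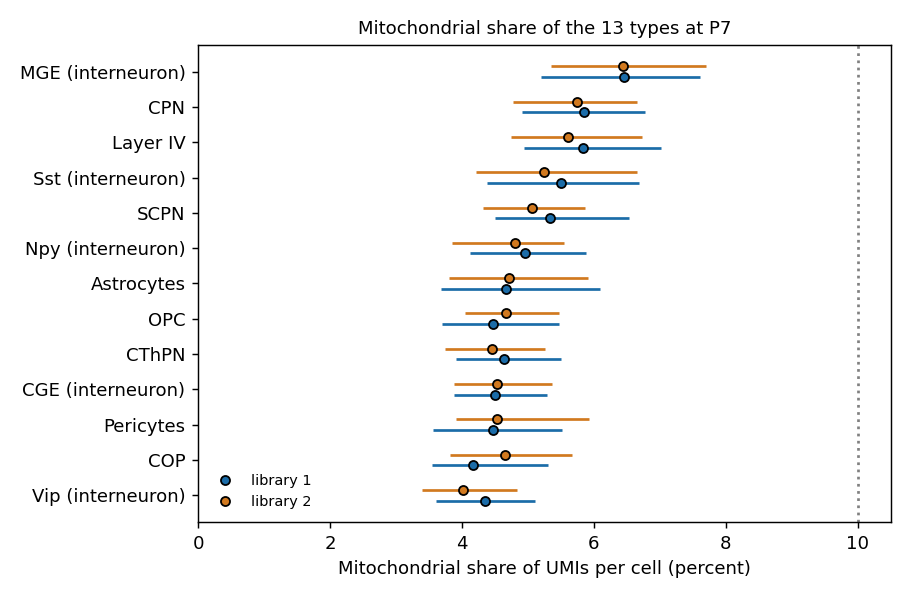
Mitochondrial share of UMIs per cell (horizontal axis, percent) for the 13 cell types named at P7, ordered by their mean. Points are medians of library 1 and library 2, lines run from the 25th to the 75th percentile of cells, and the dotted line is the 10% maximum of the authors' cell filter. MGE stands highest in both libraries, at 6.45% and 6.44%. COP, the committed oligodendrocyte precursors, is lowest in library 1, at 4.16%, and Vip in library 2, at 4.02%.

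Counted as mitochondrial UMIs per cell in place of a share, MGE and Sst were close. The median was 314 and 323 mitochondrial UMIs in MGE cells and 321 and 320 in Sst cells, with the order differing between the libraries. Npy cells held 213.5 and 226, CGE cells 166.5 and 189, and Vip cells 130 and 127.5. Over all cells, the higher MGE share next to Sst went with a like number of mitochondrial UMIs among fewer UMIs in all. These MGE medians pool a cluster at 293 and 305 mitochondrial UMIs with a smaller one at 573 and 580.5. Among cells with 4000 to 6000 UMIs the MGE share was also higher, at 6.88% and 6.86% against 5.51% and 5.47% in Sst.

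Across the 12 comparisons of MGE with another interneuron type in UMIs, genes and mitochondrial share, the sign was the same in both libraries each time. The two-sided exact permutation test, which flips the sign of the within-library difference, gave p = 0.5 for each of the 12 (adjusted p = 0.5). That is the smallest p that 2 libraries allow, so no comparison can pass this test at any size of difference. The names also come from clusters of the same cells' expression.

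The MGE type consisted of 2 clusters of unequal size. The larger, named P7_6_Inh_MGE, held 676 cells in library 1 and 646 in library 2, which was 87.0% and 86.8% of the type. The smaller, named P7_And_8_5_Inh_MGE, held 101 and 98 cells, or 13% (exact binomial 95% interval 10.7 to 15.6%) and 13.2% (10.8 to 15.8%). Its share was nearly the same in both libraries, at 13.1% ± 0.123 (SD, n = 2). The name of the smaller cluster shares its stem with those of all Sst, Npy, Vip and CGE clusters of P7, 7 clusters with 2297 cells together, of which it made up 8.68% and 8.65%. Per the methods, clusters of mixed identity were clustered again, and the shared stem may mark such a second round, which the table does not state.

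These clusters differed widely in UMIs. Cells of the larger cluster had a median of 4584 UMIs in library 1 and 4601.5 in library 2, with the middle range of cells from 3712 to 5780 and from 3713 to 5944.5. Cells of the smaller cluster had medians of 8998 and 9213 UMIs, with the middle range from 7673 to 10677 and from 7929 to 10448. The lower quartile of the smaller cluster thus lay above the upper quartile of the larger in both libraries. The ratio of their medians was 1.96 in library 1 and 2.0 in library 2, and the difference was 4513 ± 140 UMIs (SD, n = 2). Only 1 of the 101 cells of the smaller cluster in library 1, and 1 of 98 in library 2, lay below the median of the larger cluster. As these clusters were made from the expression of the same cells, their differences are descriptions with no test.

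**Figure D2:**
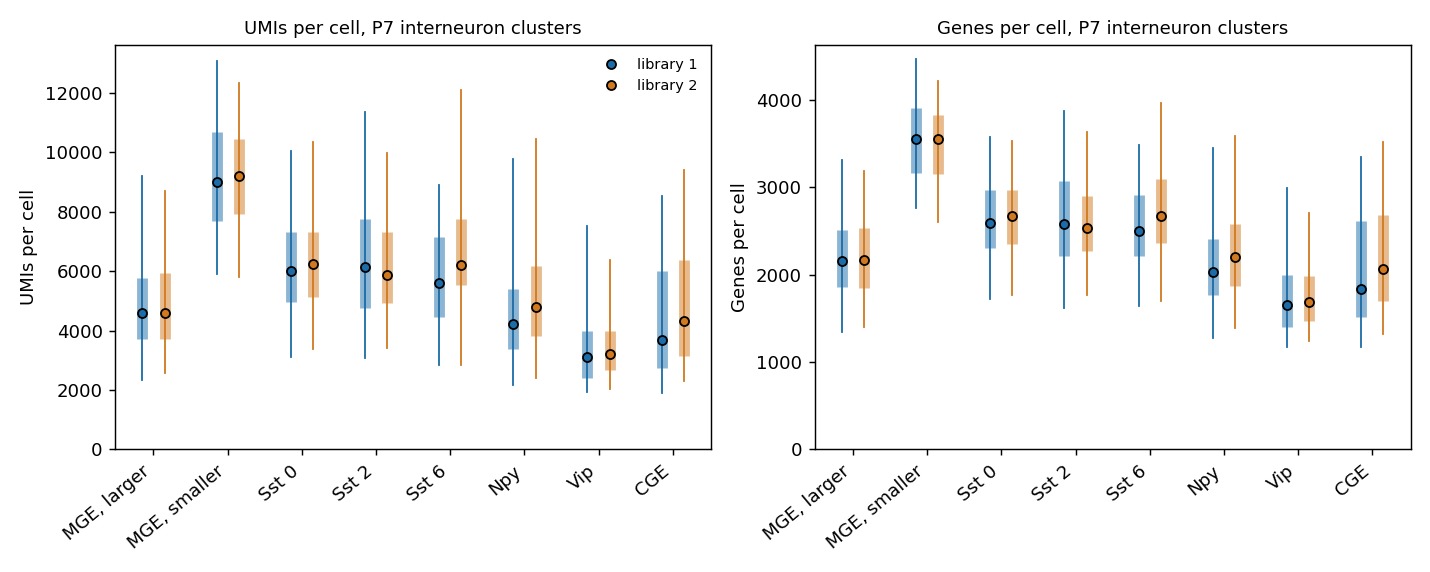
UMIs per cell (left) and genes per cell (right) in the interneuron clusters of P7, with the MGE clusters first and the number of each Sst cluster as in its name. Points are medians, thick bars run from the 25th to the 75th and thin lines from the 5th to the 95th percentile of cells, for library 1 and library 2. The smaller MGE cluster stands at 8998 and 9213 UMIs, above all other interneuron clusters.

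Genes per cell followed. The larger cluster had a median of 2160.5 genes in library 1 and 2169 in library 2, and the smaller had 3553 and 3558. The smaller cluster ranked first of the 25 P7 clusters in genes in both libraries, and second and first in UMIs. The nearest clusters of the whole age in UMIs were a CPN cluster, P7_9_CPN, with 9135 and 8970 UMIs and 3216 and 3142 genes, and a cluster of corticothalamic projection neurons, P7_12_CthPN, with 8488 and 8141 UMIs and 3275 and 3260 genes. The smaller MGE cluster also exceeded every cluster that shared its name stem. The nearest of them was the Sst cluster P7_And_8_2_Inh_Sst in library 1, with 6128 UMIs, and the Sst cluster P7_And_8_0_Inh_Sst in library 2, with 6254 UMIs, at a ratio of 1.47 in each. The larger MGE cluster ranked 13 and 17 of 25 in both UMIs and genes.

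**Figure D3:**
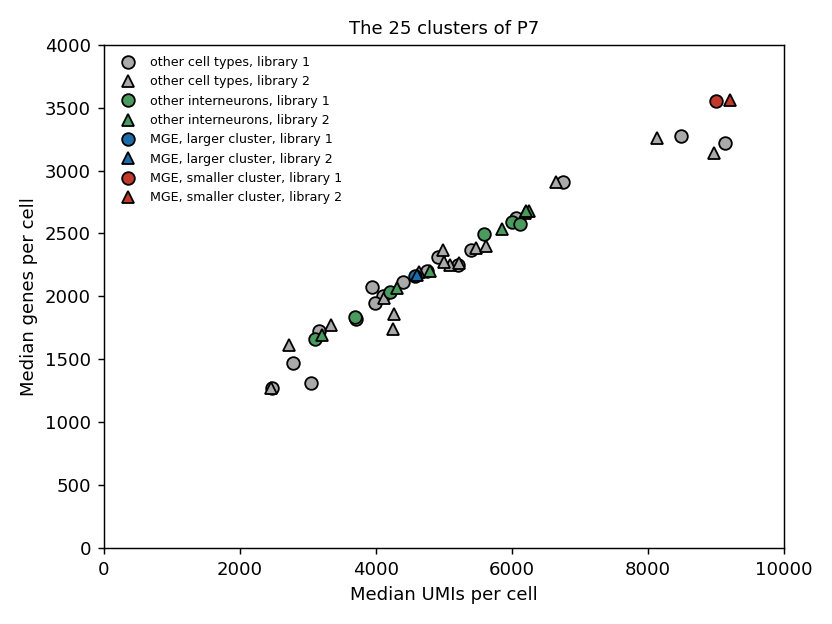
Median genes per cell (vertical axis) against median UMIs per cell (horizontal axis) of the 25 clusters of P7, with circles for library 1 and triangles for library 2. The smaller MGE cluster sits at the top, at 3553 and 3558 genes, and the larger MGE cluster in the midst of the others, at 2160.5 and 2169.

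In mitochondrial share, by contrast, the MGE clusters were alike and ranked first and second of the 25 in each library, in opposite order. The larger cluster had medians of 6.51% and 6.43%, and the smaller 6.26% and 6.45%. Their difference, -0.24 percentage points in library 1 and 0.019 in library 2, was within the spread between libraries. The next highest cluster was a CPN cluster, P7_5_CPN, in library 1, at 6.17%, and the Sst cluster P7_And_8_2_Inh_Sst in library 2, at 6.01%. That Sst cluster stood at 5.91% in library 1, and the smaller MGE cluster exceeded it by 0.354 and 0.433 percentage points. The other Sst clusters were lower, P7_And_8_0_Inh_Sst at 5.37% and 5.13% and P7_And_8_6_Inh_Sst at 4.39% and 4.29%. Of the clusters with UMIs nearest to those of the smaller MGE cluster, P7_9_CPN stood at 2.98% and 3.10% and P7_12_CthPN at 5.24% and 5.13%. In mitochondrial UMIs per cell the smaller MGE cluster was first of the 25 in both libraries, with medians of 573 and 580.5 against 293 and 305 in the larger.

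Many cells of the smaller cluster held high UMI counts, below the 15000-UMI maximum of the authors' filter. In library 1, 38.6% of its cells exceeded 10000 UMIs (exact binomial 95% interval 29.1 to 48.8%), and in library 2 34.7% did (25.4 to 44.98%). In the larger cluster these shares were 3.70% and 2.32%. Its cells were 39 of the 117 interneurons above 10000 UMIs in library 1 and 34 of 100 in library 2. Droplets that capture more than 1 cell also hold many UMIs. The sources used here do not say whether such doublets were removed, no caller was run, and their part in the level of the smaller cluster was not tested.

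The position of the MGE type among interneurons depended on how its clusters were weighted. Taken alone, an alternative chosen after the data were seen, the larger cluster stood 1436 UMIs below Sst on average, and above CGE by 586.5 and Vip by 1431. Beside Npy its order was not stable, with 4584 against 4213.5 UMIs in library 1 and 4601.5 against 4796 in library 2. The mean difference was then 88 UMIs, against 420.5 with both clusters. With equal weight for each cluster of a type, the difference of MGE from Sst turned from -1103 to 841 UMIs and from -337.5 to 267 genes. With the smaller cluster included, the middle range of UMIs spanned 0.592 and 0.622 of the median in the MGE type, against 0.427 and 0.375 in Sst. In the larger cluster alone it spanned 0.451 and 0.485.

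Genes per cell rise with UMIs, so types were also compared in cells with 4000 to 6000 UMIs, of which MGE had 300 in library 1 and 289 in library 2. Their medians were 2229 and 2226 genes, against 2343 and 2373 in Sst, 2281 and 2289 in CGE, 2158 and 2210.5 in Npy and 2189.5 and 2183 in Vip. The difference of MGE from Sst was -130.5 ± 23.3 genes and that from CGE -57.5 ± 7.78 (SD, n = 2). Differences from Npy and Vip were 43.25 ± 39.2 and 41.25 ± 2.47. The exact permutation test gave p = 0.5 for all 4 (adjusted p = 0.5), the smallest value possible here. Within this window median UMIs still differed, at 4780 and 4821 in MGE against 5139 and 5345 in Sst. Only the direction of the Sst difference held under every alternative counted in the closing section. Over bins of UMIs it did not hold throughout. From 6000 to 8000 UMIs MGE had 2795 and 2784 genes against 2809 and 2800 in Sst. Above 8000 UMIs MGE had more genes, 3588.5 and 3523 against 3433.5 in Sst in both libraries. Median UMIs of that bin were 10047 and 9399 in MGE against 9459 and 9335.5 in Sst. The bins pool the MGE clusters described above. In a window of 7500 to 9000 UMIs, set with the data in view, the clusters stood apart. The larger had fewer genes than Sst there, 3098 and 3040 against 3126.5 and 3166. The smaller had more, at 3354.5 and 3299.

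The mitochondrial share was compared at like UMIs as well. In cells with 4000 to 6000 UMIs, a comparison added after the data were seen, MGE cells had 6.88% and 6.86% in libraries 1 and 2, and Sst cells 5.51% and 5.47%. The difference was 1.38 ± 0.011 percentage points (SD, n = 2), against 1.07 over all cells. Npy, CGE and Vip cells of this window had 5.14% and 4.95%, 4.6% and 4.57%, and 4.43% and 4.69%. Among cells with at most 3000 UMIs the order of MGE and Sst was the opposite, with 6.35% and 5.66% in MGE (74 and 70 cells) against 7.16% and 6.48% in Sst (28 and 24 cells). In each of the 5 UMI bins above that, MGE was higher in both libraries, but the gap varied. From 3000 to 4000 UMIs the shares were 6.61% and 6.22% in MGE against 5.69% and 5.72% in Sst, and above 8000 UMIs they were 5.41% and 5.83% against 4.85% and 4.44%. These gaps were on average smaller than the 1.07 percentage points over all cells. Here too the bins pool the MGE clusters. Between 7500 and 9000 UMIs the larger cluster had 5.45% and 5.64%, against 5.70% and 5.08% in Sst. The smaller cluster had 6.75% and 7.19%, so at such UMIs only the smaller was above Sst in both libraries.

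**Figure D4:**
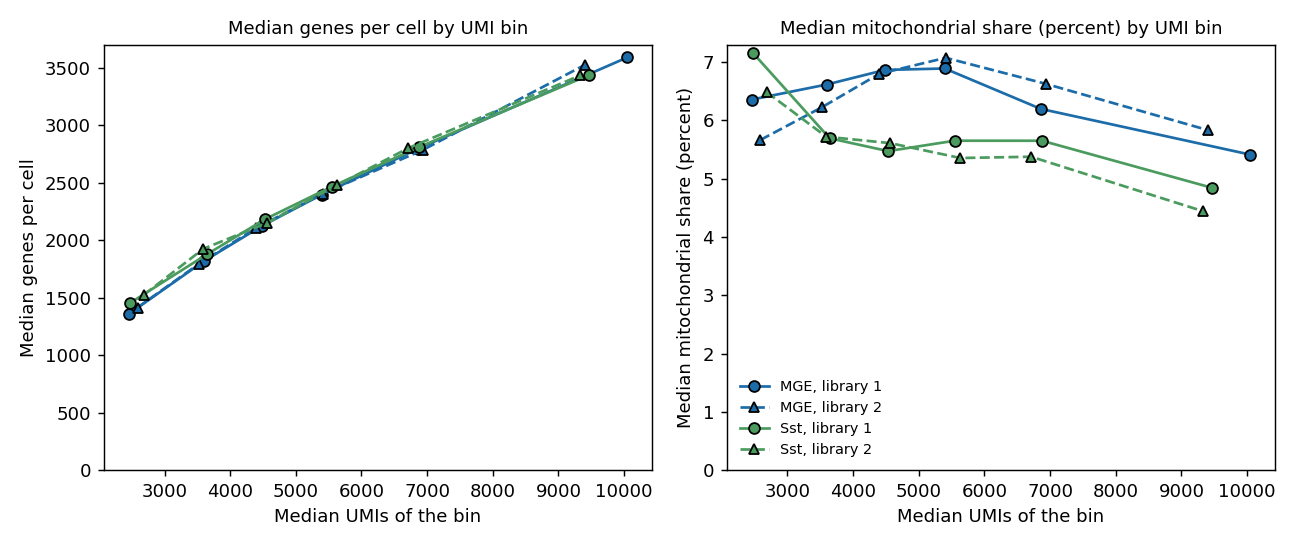
Median genes per cell (left) and median mitochondrial share in percent (right) of MGE and Sst cells in 6 bins of UMIs, against the median UMIs of the bin; solid lines with circles are library 1 and dashed lines with triangles library 2. MGE lies below Sst in mitochondrial share in the lowest bin (6.35% and 5.66% against 7.16% and 6.48%) and above it in the others. In genes MGE lies below Sst except in the highest bin, at 3588.5 and 3523 against 3433.5 in both libraries. MGE points pool the larger and the smaller MGE cluster.

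The MGE clusters were compared with each other at like UMIs too, between 7500 and 9000 UMIs per cell, limits set with the data in view. It held 34 and 45 cells of the larger cluster in libraries 1 and 2, with medians of 8120 and 8140 UMIs, and 28 and 23 cells of the smaller, with 8021.5 and 8178. The smaller cluster had 3354.5 and 3299 genes there and the larger 3098 and 3040, a difference of 258 ± 1.77 genes (SD, n = 2). Sst cells of the window had 3126.5 and 3166 genes and a mitochondrial share of 5.70% and 5.08%. The mitochondrial share was 6.75% and 7.19% in the smaller cluster and 5.45% and 5.64% in the larger, 1.43 ± 0.176 percentage points apart (SD, n = 2). In mitochondrial share the larger cluster thus lay below Sst in library 1 and above it in library 2, while the smaller lay above Sst in both. In genes the larger cluster lay below Sst in both libraries and the smaller above it in both. Among the cells of this window the clusters thus differed in genes and mitochondrial share in both libraries, while over all cells their mitochondrial shares were alike. The window took opposite ends of the clusters. It lay above the upper quartiles of the larger, 5780 and 5944.5 UMIs, and held 34 of its 676 and 45 of its 646 cells. Its upper limit was near the medians of the smaller cluster, 8998 and 9213 UMIs.

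The cells kept by the authors had a mitochondrial share under 10%, and more of the MGE type lay near that limit than of the other interneurons. Above 9% were 7.85% of MGE cells in library 1 (exact binomial 95% interval 6.06 to 9.97%) and 8.74% in library 2 (6.81 to 11%). In Sst these shares were 4.75% (3.15 to 6.83%) and 3.54% (2.11 to 5.53%). The MGE and Sst intervals overlapped in library 1 and not in library 2. In Npy, CGE and Vip at most 2.34% of the cells of a library lay above 9%. Cells beyond the limit were not analysed here, and how many of each type they were was not tested. Under a stricter limit of 5%, 20.8% of the MGE cells were kept against 39.8% of Sst and 75% of Vip cells, and the MGE share of interneurons fell from 42.0% to 22.8%.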

How the data were processed

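Per the methods, Cell Ranger 3.0.1 with mm10 was run on each 10x Genomics 3' v2 library and the libraries were aggregated with downsampling to similar coverage. Cells passed with 1000 to 6000 genes, no more than 15000 UMIs and a mitochondrial share below 10%. The authors removed outlier clusters, regressed UMIs and mitochondrial share out of the scaled expression, clustered cells within each age and named clusters by marker genes. The deposited table gave UMIs per cell as counts, the number of genes, the mitochondrial share as a fraction (multiplied into percent), age, cluster and cell type.

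The number at the end of each cell name was used as the library. P7 libraries held 57741928 and 58553300 UMIs. Medians needed at least 20 cells per library. Differences were taken within libraries and assessed with an exact, two-sided permutation of their signs, with Benjamini-Hochberg adjustment over 12 comparisons, or 4 at matched UMIs. Mitochondrial UMIs were the share times UMIs, rounded. All MGE clusters and interneuron types were named by rule. Members, lists and comparisons were chosen with earlier results of these data known. The procedure was tested on simulated data. Software was matplotlib 3.10.9, scipy 1.17.1, pandas 2.3.3 and numpy 2.4.6 under Python 3.11.15.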

Additional observations from a re-analysis of the deposited data

How the results depend on the processing

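Of 112 alternative values for the 12 differences between MGE and another interneuron type, 110 kept their direction. The exceptions, both with equal weight per cluster, were MGE minus Sst, at 841 UMIs and 267 genes. The count includes values that could not turn: the unpaired permutation, which repeats the main value, and each library alone. Direction was read from the mean of the libraries. The larger cluster alone beside Npy thus counted as kept, at 88 UMIs, though the libraries differed in sign. Size was not counted, and it changed. In cells with a mitochondrial share under 5%, which cuts the measure itself, MGE exceeded Sst, Npy, CGE and Vip by 0.167, 0.063, 0.091 and 0.266 percentage points. Over all cells these were 1.07, 1.57, 1.93 and 2.27. In UMIs the differences under that limit were -548, 1074, 1767 and 2686.5, against -1103, 420.5, 919 and 1763.5. At matched UMIs 24 of 27 kept their direction, again with each library alone among them. With 3000 to 5000 UMIs the difference in genes was -21.75 for Npy and 117 for CGE, and the residual of log2 genes on log2 UMIs was -0.0054 for Vip. The UMI bins, where MGE with its clusters pooled had more genes than Sst above 8000 UMIs, are not among the 27. The difference between the MGE clusters was 4178 UMIs and 1290 genes with means, 4342 UMIs and 1347 genes in cells with at least 1500 genes, 258 genes and 1.43 percentage points of mitochondrial share at 7500 to 9000 UMIs, and 390 genes and 0.95 percentage points at 6000 to 9000 UMIs, where UMIs still differed by 917. The MGE share of interneurons was 43.0% in cells with at least 1500 genes, 22.8% with a mitochondrial share under 5%, 42.4% of UMIs and 7.22% of P7 neurons. The MGE share of all cells was 6.99%, 3.49% and 7.29% under the first 3 of these settings. The share of the smaller cluster in the type was 14.0% in cells with at least 1500 genes and 9.12% with a mitochondrial share under 5%. The last setting left under 20 cells of the smaller cluster per library, so that medians of its UMIs, genes and mitochondrial share were not computed there. An unpaired permutation over the library medians can reach 0.333 at best. The reported differences pair types by library. By the replicate numbers of the labels, no paired analysis was possible because only P7 was compared and the table ties no number to a library. All p-values here rest on 2 libraries, which may be captures of a single pool. Windows of 6000 to 9000 and 7500 to 9000 UMIs, the larger cluster alone and mitochondrial share at matched UMIs were chosen after seeing the data.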

Other observations

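MGE cells supplied 42.4% ± 0.811 (SD, n = 2) of the UMIs of P7 interneurons and 7.29% ± 0.299 (SD, n = 2) of all P7 UMIs. The smaller MGE cluster, 13.1% of the type by cells, supplied 21.6% of its UMIs in each library. Over the cells of a library, which share depth and capture, Spearman's rho of mitochondrial share with UMIs was -0.339 and -0.334 in the smaller MGE cluster (101 and 98 cells) and -0.139 and -0.018 in the larger (676 and 646 cells). Genes per 1000 UMIs stood at 391 and 386 in the smaller MGE cluster, second lowest of the 25 P7 clusters in both libraries, and at 473 and 467 in the larger. The P7 libraries shared 160 barcodes, 1.41% of those of library 1 and 1.43% of library 2. Of the MGE cells, 23 carried a shared barcode, and no barcode was MGE in both libraries.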
